A study of Mus musculus with 6 samples.

Results

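The miRNAs described here are those of the blood vessel wall named miR-126, miR-143 or miR-145, whichever arm of the hairpin they come from. This rule found 6 of the 1055 mature miRNAs in the deposited tables, namely miR-126-3p and miR-126-5p, miR-143 and miR-143*, and miR-145 and miR-145*. The star marks the arm of the hairpin that was named as the minor one. The libraries hold small RNA of whole brain from 3 wild-type mice and 3 Adar2-/- mice, all adult females of strain 129SV, taken at 5.5 months from litters in which both genotypes were siblings. All 6 mice carried the pre-edited Gria2 R/R allele, without which loss of ADAR2 is lethal early in life, so the wild-type mice were wild type for Adar2 only. ADAR2 was missing from every cell and not only from the vessel wall, and whole brain mixes all of its cell types. Each library came from a different mouse, and values are given in the order of replicate numbers 1, 2 and 3 of a genotype.

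ADAR2 is an enzyme that converts adenosine to inosine in double-stranded RNA, and the stems of miRNA hairpins are among the RNAs it can bind. miR-126 is processed from an intron of Egfl7, a gene of endothelial cells, which line the inside of vessels, and it is known for keeping vessels intact and for tuning the response to VEGF. miR-143 and miR-145 are processed from a shared primary transcript of smooth muscle cells and pericytes, the mural cells on the outside of the endothelium, and they are known for the contractile state of vascular smooth muscle. miR-126 is therefore taken here as the readout of the inner layer of the vessel wall, and miR-143 and miR-145 as that of the outer layer. Whether they serve as such in these libraries was not tested. Fewer cells of a type and less of a miRNA per cell cannot be told apart in such libraries.

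The mature sequence of miR-126-3p is shown with its seed in capitals, since the seed is the part that pairs with target mRNAs, and the hairpin is shown with miR-126-3p in capitals, since both arms counted here are cut from its stem. Both are from the RefSeq table for GRCm38.p6, which matched 1 of the 6 miRNAs.
miR-126-3p: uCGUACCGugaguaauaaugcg
Mir126a hairpin: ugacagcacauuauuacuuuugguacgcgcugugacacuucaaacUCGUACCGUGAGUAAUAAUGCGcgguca

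On GRCm38.p6 the hairpin lies at chr2:26591357-26591429 on the plus strand and miR-126-3p at chr2:26591402-26591423. On NCBIM37 the identical sequence lies on chromosome 2 from 26446877 to 26446949, inside Egfl7 and on the same strand. Of the 11 annotated Egfl7 transcripts that cross this position, 1 has an exon there and it is intronic in the others. Among the 1738 mature miRNAs of the table, miR-126-3p was the only one with its seed. The hairpin holds 19 adenosines, the base that ADAR2 acts on, of which 6 are in miR-126-3p. RNAfold placed 54 of its 73 bases, 14 of the adenosines and 19 of the 22 bases of miR-126-3p in pairs, at a minimum free energy of −31.2 kcal/mol. A second annotated hairpin, Mir126b, is cut from the opposite strand of the same bases, and the authors discarded reads on the reverse strand. The Mir143 and Mir145a hairpins are 1301 bases apart in the RefSeq annotation.

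Between 12449633 and 23935544 reads per library were mapped to miRNAs, and levels are given as reads per 1000000 of these (RPM). miR-126-3p, miR-126-5p, miR-143 and miR-145 reached 100 reads in each of the 6 libraries, and these 4 entered edgeR's quasi-likelihood test among all 399 miRNAs of that depth. The 2 star arms of miR-143 and miR-145 stayed below it. For these 4 the 95% Wilson interval reached at most 2.90% of the value to either side, widest for miR-145. Since several reads can stem from the same molecule, it covers counting error only. Each brain had its own lane according to the study, so that lane and mouse cannot be told apart. In the column names of the deposited counts, replicates 2 and 3 share the same s marks and replicate 1 carries others. Wild type always bears the lower s mark, so genotype and mark cannot be told apart. What the marks stand for is not stated. As markers of brain tissue, the neuronal miR-124 stood at 11709 ± 3928 RPM in wild type and 17216 ± 7382 in Adar2-/- (SD, n = 3 each). Adar2 mRNA was not analysed here, so the genotype labels were not checked.

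The vessel wall miRNAs together took 6.27%, 5.26% and 8.03% of the miRNA reads in the wild-type mice, and 6.17%, 5.59% and 5.03% in the mice without ADAR2. Almost all of this came from miR-126-3p and miR-143. In each library the order of levels was the same below these leaders, with miR-126-5p next, then miR-145, then miR-145* and then miR-143*, both under 3 RPM. miR-126-3p ranked between 5 and 10 among all miRNAs of a library and miR-143 between 6 and 11. These neighbours in the order overlapped over the libraries, miR-126-3p from 22858 to 42109 RPM and miR-143 from 21115 to 32578 RPM. miR-143 was the higher of the pair in Adar2-/- replicates 1 and 3 and the lower in the other 4 libraries. Levels of different miRNAs also carry the ligation preference of each sequence, which was not measured.

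**Figure D1:**
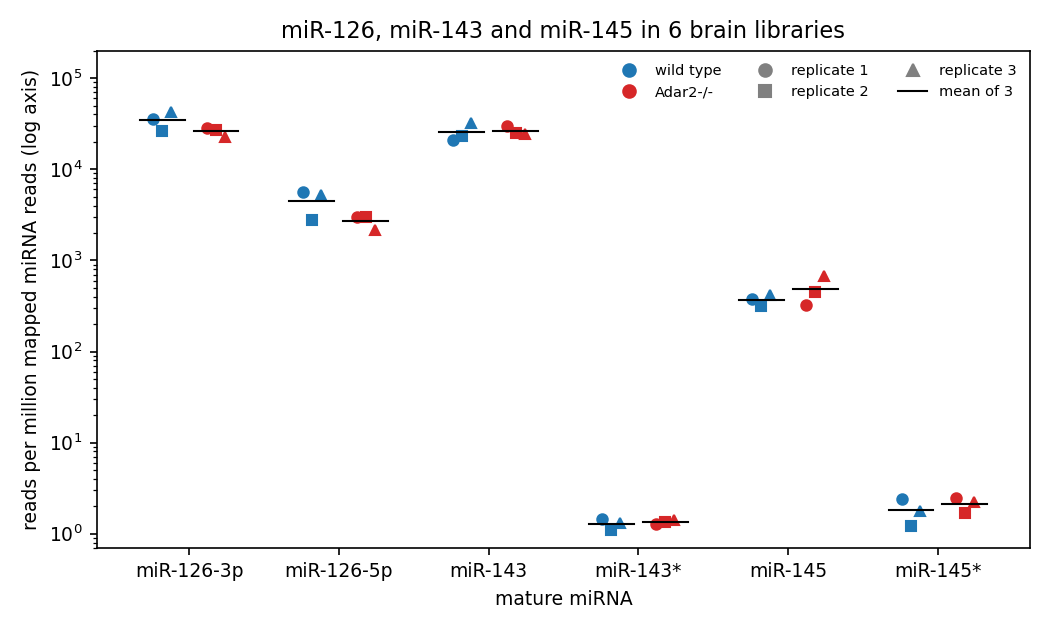
Level of each of the 6 miRNAs (x axis) in reads per 1000000 mapped miRNA reads on a log axis, with 1 point for each library and a line at the mean of 3. miR-126-3p and miR-143 lie at 21115 RPM or above in every library, and the star arms of miR-143 and miR-145 at 2.47 RPM or below.

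miR-126-3p, the guide strand of the endothelial hairpin, stood at 35569.8, 26338 and 42109 RPM in the wild-type mice and at 28698, 27282 and 22858 RPM in the Adar2-/- mice. Wild-type replicates 1 and 3 were higher than every Adar2-/- library, whereas wild-type replicate 2 lay inside the Adar2-/- range. The mean was 34672 ± 7924 RPM in wild type and 26279 ± 3046 in Adar2-/- (SD, n = 3 each), a ratio of 0.758. edgeR gave a log2 fold change of −0.40 ± 0.316 (standard error) with an adjusted p of 0.988, which did not pass the threshold of 0.05. Relative to all miRNAs its spread over the 6 libraries was moderate, with an SD of 0.32 on the log2 RPM scale against a median of 0.45 over the 399 miRNAs.

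miR-126-5p, the other arm of this hairpin, was read at a lower level but showed the larger genotype difference in size. It stood at 5626, 2792 and 5198 RPM in the wild-type mice and at 3023, 2971 and 2182 RPM in the Adar2-/- mice. The same wild-type libraries, replicates 1 and 3, were high, and wild-type replicate 2 fell between the Adar2-/- libraries. The mean was 4539 ± 1527 RPM in wild type and 2725 ± 471 in Adar2-/- (SD, n = 3 each), a ratio of 0.601. In edgeR this was a log2 fold change of −0.74 ± 0.357 (standard error), with an unadjusted p of 0.0663 and an adjusted p of 0.988. miR-126-5p is among the miRNAs that the study itself picked out on these libraries, so its direction is not independent evidence.

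When Adar2-/- was divided by wild type within replicate numbers, miR-126-5p gave 0.537, 1.06 and 0.420, and miR-126-3p gave 0.807, 1.04 and 0.543. Replicate 2 thus went against the others in both arms by total reads. The study lists miR-126-5p as consistently lower in Adar2-/-, by a smaller fold than that of the means here. Its list also asked for a 1.3-fold change and for passing a test between genotypes. Whether it compared libraries by replicate number is not stated in the sources used here, so these ratios cannot decide its listing. A shared direction in all 3 replicate numbers was found for 0 of the 4 tested vessel wall miRNAs, beside 16.0% of the 399 miRNAs. The rule of 1 direction in all 3 replicate numbers together with a 1.3-fold change of the mean was likewise met by 0 of the 4, beside 9.77% of the 399 miRNAs. This count depended on how the libraries were scaled. With TMM factors, which scale on the bulk of the miRNAs, the ratios of miR-126-5p were 0.682, 0.907 and 0.392, so that miR-126-5p met the rule, as did 15.3% of the 399 miRNAs. When totals were taken without the 5 most abundant miRNAs, miR-126-5p and miR-126-3p both met it, as did 13.0% of the 399. In each of these scalings the levels of both arms still overlapped between genotypes.

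The ratio of the arms within a library does not depend on scaling. Reads of miR-126-3p outnumbered those of miR-126-5p by 6.32, 9.43 and 8.10 in the wild-type mice and by 9.49, 9.18 and 10.5 in the Adar2-/- mice. Wild-type replicate 1 was the lowest and Adar2-/- replicate 3 the highest, and wild-type replicate 2 exceeded Adar2-/- replicate 2, so that the genotypes overlapped, whereas 9.8% of 102 hairpins had arm ratios that did not. On the log2 scale the mean was 2.97 ± 0.29 in wild type and 3.28 ± 0.10 in Adar2-/- (SD, n = 3 each), a difference of 0.31 (standard error 0.178, two-sided exact permutation test, p = 0.2). With 3 libraries against 3, the smallest p this test allows is 0.1. Without wild-type replicate 1 the difference was 0.15. The arm ratio of miR-126 varied little over the libraries, with an SD of 0.26 on the log2 scale. Of these 102 hairpins, which had at least 100 reads of both arms in each library, 92 had a larger SD, and their median was 0.57.

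miR-143, the abundant miRNA of mural cells, stood at 21115, 23192 and 32578 RPM in the wild-type mice and at 29616, 25232 and 24604 RPM in the Adar2-/- mice. The wild-type libraries held both the lowest and the highest value, and all 3 Adar2-/- libraries lay between them. The mean was 25628 ± 6108 RPM in wild type and 26484 ± 2730 in Adar2-/- (SD, n = 3 each), a ratio of 1.03. edgeR put the log2 fold change at 0.05 ± 0.313 (standard error) with an adjusted p of 0.989, and its direction turned when single libraries were left out. miR-143 was the steadiest of the 4, with an SD of 0.23 on the log2 RPM scale, and 36 of the 399 miRNAs had a smaller one.

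miR-145, from the neighbouring hairpin of the same primary transcript, was read at a far lower level than miR-143. It stood at 378, 319 and 413 RPM in the wild-type mice and at 321.7, 450.8 and 676 RPM in the Adar2-/- mice. Adar2-/- replicates 2 and 3 lay above every wild-type library, and Adar2-/- replicate 1 near the lowest of them. The mean was 370.03 ± 47.3 RPM in wild type and 483 ± 179 in Adar2-/- (SD, n = 3 each), a ratio of 1.31. edgeR put the log2 fold change at 0.38 ± 0.355 (standard error) with an adjusted p of 0.988. Without Adar2-/- replicate 3 it was 0.06.

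**Figure D2:**
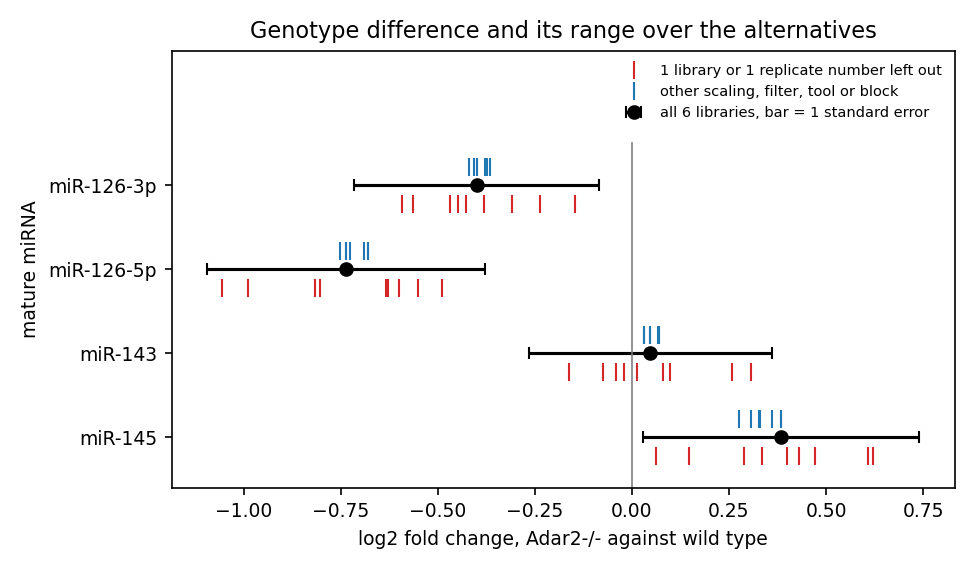
edgeR log2 fold change of Adar2-/- against wild type (x axis) for the 4 tested vessel wall miRNAs (y axis). Black points with bars give the value and standard error over 6 libraries, red ticks the values with 1 library or 1 replicate number left out and blue ticks the other settings. Both arms of miR-126 stay below 0 throughout, miR-145 stays above 0, and the red ticks of miR-143 fall on both sides of 0.

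edgeR called 0 of the 4 tested miRNAs, beside 0.0% of the 399, and at an unadjusted p under 0.05 it counted 0 of the 4, beside 3.26% of the 399. DESeq2 likewise called 0 of the 4, with 0.251% of the 399 called. At an unadjusted p under 0.05 DESeq2 counted 1 of the 4, miR-126-5p (log2 fold change −0.73, adjusted p = 0.416), beside 10.0% of the 399. In RPM the genotypes overlapped for each of the 4, whereas they did not for 5.76% of the 399 miRNAs.

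Although both hairpins come from 1 primary transcript, the ratio of miR-145 to miR-143 was not constant. miR-145 reads were 0.0179, 0.0138 and 0.0127 of miR-143 reads in the wild-type mice and 0.0109, 0.0179 and 0.0275 in the Adar2-/- mice. The Adar2-/- group held the lowest and the highest value, which were 2.53-fold apart. The mean log2 ratio was −6.10 ± 0.26 in wild type and −5.84 ± 0.67 in Adar2-/- (SD, n = 3 each), a difference of 0.26 (standard error 0.415, two-sided exact permutation test, p = 0.7). Without Adar2-/- replicate 3 the difference was −0.07.

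The star arms of the mural hairpins were barely read. miR-143* had 18, 25 and 31 reads in the wild-type mice and 24, 32 and 34 in the Adar2-/- mice. This was 1.29 ± 0.18 RPM in wild type and 1.35 ± 0.067 RPM in Adar2-/- (SD, n = 3 each, two-sided exact permutation test on log2 RPM, p = 0.7). miR-145* had 30, 28 and 42 reads in wild type and 46, 40 and 53 in Adar2-/-, which was 1.81 ± 0.59 and 2.13 ± 0.39 RPM (SD, n = 3 each, p = 0.6 in the same exact test). The Wilson intervals reached up to 58.1% of the value above it for miR-143* and up to 44.5% for miR-145*. A small genotype difference would thus lie within counting error. Apart from depth, the exact test cannot give a p under 0.1 with 3 libraries against 3.

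The 3 hairpins differed widely in how unevenly their arms were read. miR-143 outnumbered miR-143* between 14604 and 24667 times in the 6 libraries, and only 3 of the 294 hairpins with reads of both arms in every library were more uneven. miR-145 outnumbered miR-145* between 130.4 and 305.5 times, which placed it at rank 45. miR-126, with both arms well read, stood at rank 171 of 294. Its mean log2 arm ratio was 3.13, below the median of 3.78 over these hairpins. Arm by arm, the endothelial hairpin thus gave a pair of abundant miRNAs and each mural hairpin gave 1.

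The endothelial and mural miRNAs were then set against each other within each library, a comparison that does not depend on scaling. The summed miR-126 arms divided by the summed miR-143 and miR-145 arms gave 1.92, 1.24 and 1.43 in the wild-type mice and 1.06, 1.18 and 0.990 in the Adar2-/- mice. The Adar2-/- values all lay under the wild-type values, with wild-type replicate 2 and Adar2-/- replicate 2 the closest. On the log2 scale the mean was 0.59 ± 0.32 in wild type and 0.10 ± 0.13 in Adar2-/- (SD, n = 3 each). The difference was −0.49 (standard error 0.199), which makes the ratio 1.40-fold higher in wild type. In the two-sided exact permutation test p was 0.1, the smallest that 3 libraries against 3 allow, so the test cannot pass 0.05.

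A gap of this kind was not rare among these libraries. Of the 79401 ratios between any pair of the 399 tested miRNAs, 8.75% did not overlap between genotypes. Of the 398 ratios of miR-126-3p to another tested miRNA, 9.55% were lower in every Adar2-/- library than in every wild-type library. This share counts 1 direction only, whereas the 8.75% counts gaps in either direction, so they are not like for like. With miR-126-3p, miR-143 and miR-145 alone, leaving out the less abundant arms, the difference was −0.45 and the genotypes did not overlap. These miRNAs hold most of the reads of both sums, so this is nearly the same comparison. Leaving out each library in turn gave differences between −0.63 and −0.31. Their sign could not turn, since the genotypes do not overlap. Neither side of the ratio separated the genotypes by itself. The summed miR-126 arms ranged from 29130.0 to 47306 RPM in wild type and from 25040.5 to 31721 RPM in Adar2-/-, and the mural arms from 21496 to 32994 RPM and from 25284 to 29941 RPM.

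**Figure D3:**
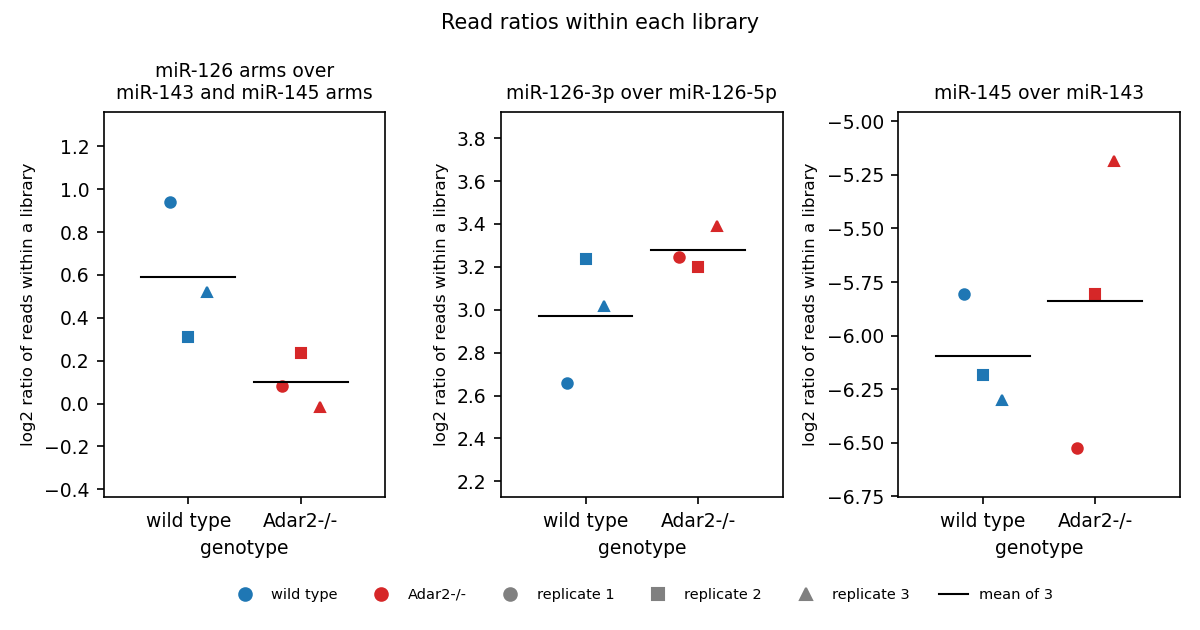
log2 ratio of reads within each library for the wild-type and Adar2-/- groups (x axis), with 1 point for each library, a line at the mean of 3, and the same span on each y axis. In the left panel the Adar2-/- points, from −0.01 to 0.24, all lie below the wild-type points, from 0.31 to 0.94, whereas the genotypes overlap in the middle and right panels.

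Over the 6 libraries both arms of miR-126 went up and down together. Pearson's r of their log2 RPM was 0.95 (exact permutation p = 0.0194, adjusted p = 0.117 over the 6 relations computed) and Spearman's rho was 0.94 (exact permutation p = 0.0167, adjusted p = 0.10). Neither passed 0.05 after adjustment. Without the 2 libraries farthest from the median of miR-126-3p, wild-type replicates 1 and 3, r was 0.98. The arms share a hairpin and a library total, and each genotype has only 3 libraries, too few for a value within it.

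miR-126-3p and miR-143, the leading miRNAs of endothelium and mural cells, were less closely related, with r = 0.38 and rho = 0.37 (exact permutation p = 0.422 and 0.497, adjusted p = 0.721 and 0.857). Without wild-type replicates 1 and 3, r was 0.57. miR-143 and miR-145 had r = −0.07 and rho = 0.20 (exact permutation p = 0.956 and 0.714, adjusted p = 0.956 and 0.857), and r was 0.55 without wild-type replicate 3 and Adar2-/- replicate 1. miR-145 against miR-126-3p gave r = −0.37 (exact permutation p = 0.464, adjusted p = 0.721) and rho = −0.20 (exact permutation p = 0.714, adjusted p = 0.857), and r was −0.85 without wild-type replicates 1 and 3. Against miR-126-5p, miR-143 gave r = 0.09 and rho = 0.09 (exact permutation p = 0.872 and 0.919, adjusted p = 0.956 and 0.919), and r was 0.43 without wild-type replicates 1 and 3. miR-145 gave r = −0.38 and rho = −0.26 against miR-126-5p (exact permutation p = 0.481 and 0.658, adjusted p = 0.721 and 0.857), and r was −0.83 without the same libraries.

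These weaker relations depended on how the libraries were scaled, although each kept its sign and 0 of them passed 0.05 after adjustment. With TMM factors and with totals lacking the 5 most abundant miRNAs, r of miR-126-3p and miR-145 was −0.74 and −0.67, and r of miR-126-5p and miR-145 was −0.77 and −0.59. For miR-143 and miR-145 r was −0.18 and −0.47, for miR-126-3p and miR-143 it was 0.53 and 0.65, and for miR-126-5p and miR-143 it was 0.14 and 0.40. The arms of miR-126 stayed at 0.91 and 0.96 (exact permutation test, adjusted p = 0.0833 and 0.05).

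**Figure D4:**
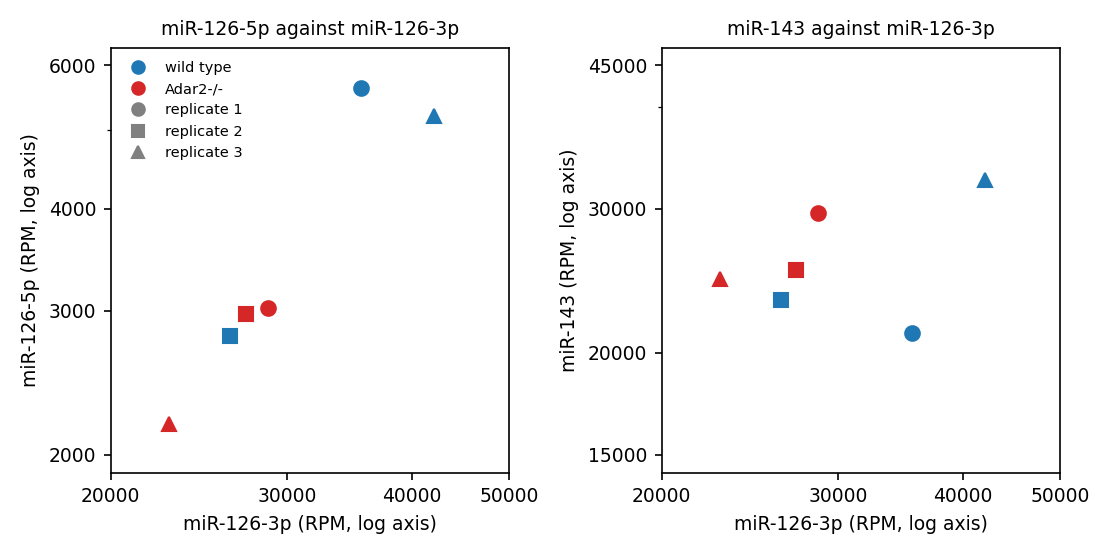
miR-126-5p (left) and miR-143 (right) against miR-126-3p on the x axis, in RPM on log axes, with 1 point for each of the 6 libraries. The miR-126 arms follow each other from Adar2-/- replicate 3 up to wild-type replicates 1 and 3, whereas wild-type replicate 1, high in both miR-126 arms, has the lowest miR-143.

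The miRNAs whose log2 RPM was most like that of each vessel wall miRNA over the 6 libraries were sought among the other 398. For miR-126-3p they were miR-676 (r = 0.995), miR-664* (r = 0.99) and let-7f-2* (r = 0.97), with miR-126-5p in place 4. For miR-126-5p they were miR-369-5p (r = 0.96), miR-664* (r = 0.96) and miR-30b* (r = 0.96), again with the other arm in place 4. For miR-143 they were miR-542-3p (r = 0.96), miR-142-3p (r = 0.94), a miRNA of white blood cells, and miR-3470b (r = 0.89), while miR-126-3p came in place 64 and miR-145 in place 190. For miR-145 they were miR-212-3p (r = 0.99), an activity-regulated miRNA of neurons, miR-29a (r = 0.97) and miR-496 (r = 0.96), while miR-143 came in place 313. All points share library totals, and taking the highest of 398 candidates over only 6 libraries favours a high r. Above 0.9 were 6, 7, 2 and 21 miRNAs for miR-126-3p, miR-126-5p, miR-143 and miR-145.

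Other miRNAs linked to vessels did not separate the genotypes either. The list of 22 further miRNAs described in endothelial cells, led by miR-24 and miR-221, summed to between 10631 and 11746 RPM in wild type and between 9134 and 17793 in Adar2-/-, where the highest sum was in replicate 3, the library with the least miR-126. Of its 11 tested members 0 passed edgeR's threshold and 6 had a log2 fold change above 0. The median was 0.01, beside 0.0023 over the 399 miRNAs. miR-24 stood at 7229 ± 524 RPM in wild type and 9509 ± 3288 in Adar2-/- (SD, n = 3 each), opposite in sign to miR-126-3p. By mean level the sum of this list is mostly miR-24, with miR-221 next at 1498 RPM in wild type and 1811 in Adar2-/-. The list of 8 mesenchymal or mural-linked miRNAs, led by miR-21 and miR-199a-3p, summed to between 6777 and 7397 RPM in wild type and between 6708 and 9219.7 in Adar2-/-, with identical counts taken once. miR-199a-3p and miR-199b have such counts, so that the 4 tested miRNAs are 3 distinct measurements. Each of these 3 had a log2 fold change above 0, as had 50.4% of the 399 miRNAs, their median was 0.14, and 0 passed the threshold. The sum of this list is almost all miR-21, with a mean of 7096 RPM in wild type and 8230 in Adar2-/-. miR-199a-3p, next in level, had means of 13.5 and 14.8 RPM.

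Blood left in the vessels would add blood cell miRNAs to the same libraries. The 5 red blood cell miRNAs, led by miR-451 and miR-486, summed to 771, 446 and 1600.2 RPM in the wild-type mice and to 1528, 1269 and 1131 RPM in Adar2-/-. The 10 white blood cell miRNAs, led by miR-142-3p and miR-150, summed to 1601, 1734 and 2878 RPM in wild type and to 2446, 1939.9 and 1862 RPM in Adar2-/-. Wild-type replicate 3, the library with the most miR-126-3p and miR-143, was also the highest in both blood lists, whereas wild-type replicate 1, high in miR-126, was the lowest in white blood cell miRNAs. Of the 4 tested members of each list 0 passed the threshold, and 0 members of either list were at 0 in every library. Of the 4 red blood cell miRNAs tested 3 had a log2 fold change above 0, and their median was 0.61. Of the 4 white blood cell miRNAs tested 1 had a log2 fold change above 0, and their median was −0.08. Over the 399 miRNAs 50.4% were above 0 and the median was 0.0023. The part of blood in the vessel wall values was not tested.

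Lists of other brain and neighbouring cells varied over the same libraries. Neuron miRNAs, led by miR-138 and miR-124, summed to between 21954 and 38798 RPM in wild type and between 22844 and 47716 in Adar2-/-. Sensory or pineal miRNAs, led by miR-182 and miR-183, summed to between 108157 and 155375 RPM in wild type and between 19159 and 186904 in Adar2-/-, with the lowest value in Adar2-/- replicate 3, the library that had the least miR-126 and the most miR-145. Neuroendocrine miRNAs, led by miR-7a and miR-7b, reached 7527 RPM in wild-type replicate 1, the library with the highest ratio of miR-126 to mural miRNAs, and stood between 1302 and 4748 RPM in the others. Another miRNA of this list, miR-375, named here after its values were seen, made up much of that peak. It stood at 3294, 113 and 42.9 RPM in the wild-type mice and at 71.7, 74.9 and 55.4 RPM in the Adar2-/- mice, so that wild-type replicate 1 alone was high. Its log2 fold change was −4.09 (edgeR, unadjusted p = 0.0109, adjusted p = 0.988), whereas those of miR-7a and miR-7b were 0.42 and 0.19. Without miR-375 the list summed to 4233 RPM in wild-type replicate 1, below the 4693 RPM of Adar2-/- replicate 3. Oligodendrocyte miRNAs, led by miR-219-3p and miR-338-3p, ran from 1293 to 1783 RPM over the 6 libraries. Choroid plexus miRNAs, led by miR-204 and miR-211, ran from 842 to 1628 RPM, and striated muscle miRNAs, led by miR-1 and miR-206, from 2255 to 3391 RPM. The choroid plexus sum is almost all miR-204, with means of 1103 RPM in wild type and 1282 in Adar2-/-, beside 2.21 and 1.68 for miR-211. Over the 10 lists 50 of 90 miRNAs were tested, edgeR called 0 of them, and the unadjusted p was under 0.05 for 1, miR-375, beside 3.26% of the 399. Their part in the vessel wall values was not tested.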

How the data were processed

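Size-selected small RNA from 3 wild-type and 3 Adar2-/- brains was used. The authors clipped adaptors with Cutadapt, aligned reads to the mature miRNAs of miRBase with NextGenMap at high identity, dropped reverse-strand hits and gave weights to reads that fitted several miRNAs equally. They deposited counts per mature miRNA as whole numbers, without normalization, and how weights became whole numbers is not given in the sources used here. The submitters' processing notes name mm9. After 12 blank lines were dropped, each column was given to the sample that matches its genotype and replicate number.

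miRNAs were chosen by their number, and the members and lists were chosen with earlier results of these data known. Replicates are separate mice. edgeR 4.0.16 (R 4.3.3) tested the counts by quasi-likelihood, with total miRNA reads as library size, no block and Benjamini-Hochberg adjustment over the 399 miRNAs that had 100 or more reads in each library (threshold 0.05). Single values were compared by exact permutation tests of mean log2 values. Named miRNAs were all 6 members, the 3 most alike by Pearson's r for each tested member, and the 2 most abundant of each marker list. DESeq2 1.42.0 and other scalings, filters, blocks and left-out libraries were alternatives. RNAfold (ViennaRNA 2.7.2) folded the miR-126 hairpin. Python 3.11.15, numpy 2.4.6, pandas 2.3.3 and scipy 1.17.1 were used. The edgeR and DESeq2 steps were tested on simulated data.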

Additional observations from a re-analysis of the deposited data

How the results depend on the processing

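edgeR called 0 of 399 miRNAs with all 6 libraries, 1 miRNA passed with DESeq2 and between 0 and 18 passed when a library or replicate number was left out, the 18 without replicate 1, with 0 of the vessel wall miRNAs in each case. The count of vessel wall miRNAs in 1 direction by at least 1.3-fold, 0 by total reads, was 1 with TMM factors and 2 with totals that leave out the 5 most abundant miRNAs, and ran from 0 to 2 with a replicate number left out, when only 2 comparisons have to match. The direction of miR-143 turned with libraries left out, from −0.16 to 0.31 for its edgeR log2 fold change and from −0.059 to 0.25 for its mean difference of log2 RPM. Without wild-type replicate 1, wild-type replicate 2, Adar2-/- replicate 1 or replicate 1 of both genotypes, the log2 fold change was −0.07, −0.02, −0.04 and −0.16, and the difference of log2 RPM was −0.059 without wild-type replicate 1 and −0.015 without Adar2-/- replicate 1. That of miR-143* ran from −0.030, without wild-type replicate 2, to 0.17, and the miR-145 to miR-143 ratio from −0.069, without Adar2-/- replicate 3, to 0.60. The cause was not tested. The log2 fold change of miR-126-3p ran from −0.59 to −0.15 and that of miR-126-5p from −1.06 to −0.49 over the 16 alternatives, with adjusted p from 0.361 to 0.998. The correlations of the deviations of same-numbered libraries from their genotype means were −0.0010, −0.076 and −0.014, so no likeness by number was seen. With 3 libraries per genotype these values cannot decide whether the numbers mark pairs. With the number as a block the log2 fold change of miR-126-3p was −0.38, that of miR-126-5p −0.69, and the block called 0 of 399 miRNAs. In all, 160 of 174 alternative values were counted as unchanged, 8 changed direction and 6, all of them counts of miRNAs, moved. The exact tests of genotype differences cannot give a p under 0.1, so their side of the threshold could not change. Counts of miRNAs have no direction. The total of 160 is therefore no measure of how firm the results are. Depth limits only the star arms of miR-143 and miR-145.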
